A study of Ovis aries with 14 samples.

Results

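PRL encodes prolactin, the hormone of the pituitary lactotrophs, and CGA encodes the alpha subunit that luteinizing hormone, follicle-stimulating hormone and thyroid-stimulating hormone share. Both are classical transcripts of the anterior pituitary, and they were read here in dissected hypothalamus of fetal sheep as markers of pituitary tissue in the piece. The members were every array probe whose gene name, or the current symbol matched to it, was PRL or CGA. That gave 2 genes with 4 probes, of 965 gene symbols and 15008 probes on the array, and none of the 4 was lost to the filter on dim probes. The genes were chosen with their levels in these samples already known, so their levels and group differences are given as a description, with standard errors and without p-values.

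The study asked how triclosan, an antibacterial additive of consumer products, acts on the fetal hypothalamus when it reaches the fetus directly or through the ewe. All fetuses were near day 130 of gestation and all infusions lasted 2 days. In the direct arm, catheterized fetuses received vehicle (fetal vehicle, n = 4) or triclosan at 250 µg per day (fetal triclosan, n = 4) into a vein. In the indirect arm, the ewe received vehicle (maternal vehicle) or triclosan at 100 µg/kg per day (maternal triclosan, n = 3), and the fetal hypothalamus was again the tissue taken. Of the 3 maternal vehicle arrays, replicate 3 equalled 0.6 times replicate 1 plus 0.4 times replicate 2 at all 15744 spots within a relative difference of 1e-06, so maternal vehicle counts 2 arrays here and 13 arrays were used. The labels do not tie replicates to pregnancies, so the spread between arrays may be partly technical.

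As background, the anterior pituitary lies below the hypothalamus, and its upper collar, the pars tuberalis, wraps the median eminence, so that a dissected hypothalamus can carry some of it. Lactotrophs, which make PRL, lie mainly in the distal lobe, whereas CGA is made by gonadotrophs and thyrotrophs and, in sheep, strongly by the pars tuberalis together with the thyrotropin subunit TSHB. The alpha subunit is active only when paired with a specific beta subunit, and dopamine from the hypothalamus holds prolactin release in check.

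The probes matter here because agreement between 2 probes of a gene, and letters shared with other genes, decide how far each reading can be trusted. Each probe is 60 bases long, of which 30 are printed, 5′ to 3′ as in the scanner files, and probe positions are those that the files give on the design transcript. PRL probe A covered positions 801 to 860 with 1 spot, and PRL probe B covered positions 841 to 900 with 5 spots, so that the 20 bases in capitals belong to both.
PRL probe A: tccctggcaaACTTCTCTGAGCTTTATAGC
PRL probe B: ACTTCTCTGAGCTTTATAGCtttttaatgc
The CGA probes did not overlap: probe C covered positions 550 to 609 and probe D positions 619 to 678, with 1 spot each. Their first 30 bases are all in lower case because they share no stretch.
CGA probe C: cctgctttgagaatatactgcagctttatt
CGA probe D: tcttttcatttggaatgaaatatggcattt
The longest run that a PRL or CGA probe had in common with a probe of another name, among all 15008 probes, was 18 bases, between PRL probe B and a probe for PRP1, a prolactin-related protein. The shared run is in capitals in both of the following stretches.
PRL probe B against PRP1: ctttatAGCTTTTTAATGCATGCTtggctc
PRP1 probe: atttacAGCTTTTTAATGCATGCTctgtga
PRL probe A shared at most 12 bases with any probe outside PRL, CGA probe C at most 13 and CGA probe D at most 15.

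PRL was low on 12 of the 13 arrays and high on 1, maternal vehicle replicate 2, whereas CGA held both low and high arrays in every group except maternal vehicle, in which both arrays were low. A level is the log2 of the processed signal minus the 75th percentile of log2 signals of the same array, so a level of 0 means a signal equal to that percentile. All 4 probes were well above background on all 13 arrays, although on fetal triclosan replicate 4 this held for 4 of the 5 spots of PRL probe B. Signal per molecule differs between probes, so levels of different genes are not ranked as amounts of RNA, and a sum over markers is weighted by its brightest probes.

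**Figure D1:**
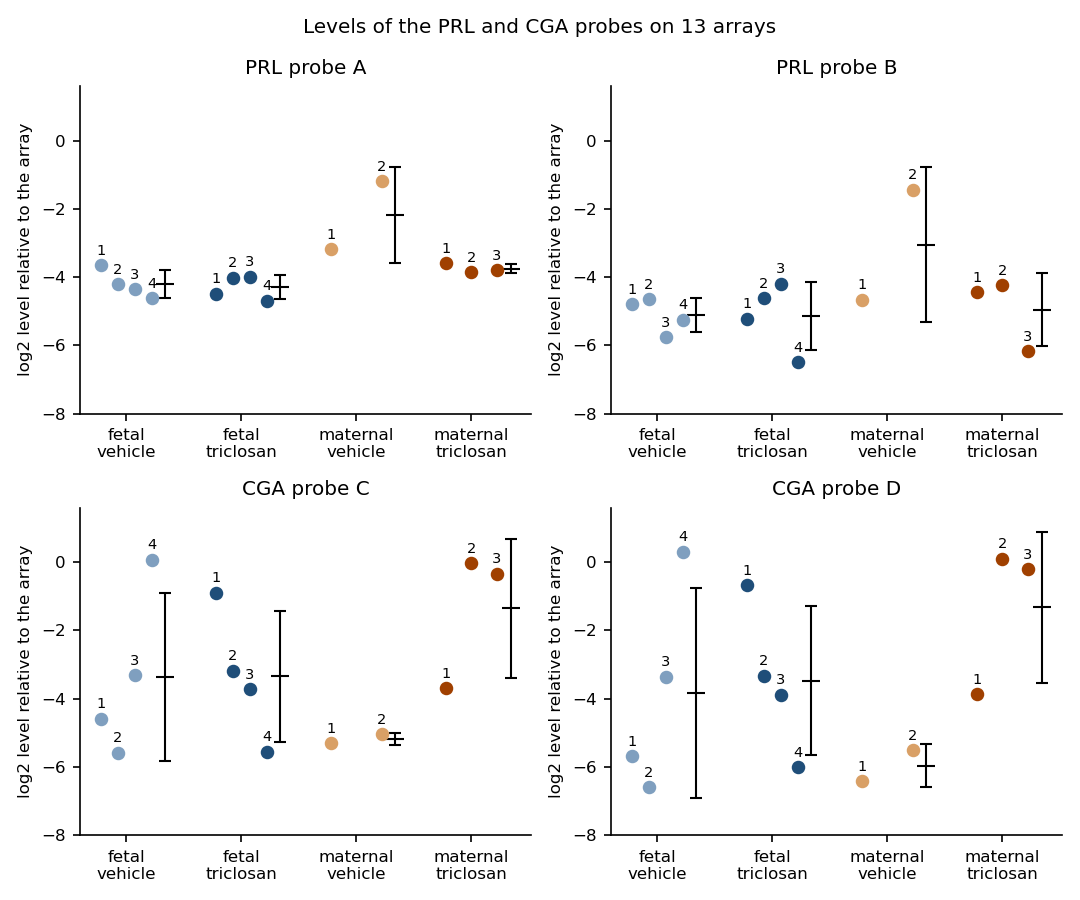
Log2 level of each probe (y axis, processed signal relative to the 75th percentile of the array) on 13 arrays in the 4 groups (x axis), each point 1 array with its replicate number, the bar beside it the group mean with its SD. PRL stands apart on maternal vehicle replicate 2 on both probes, and CGA spans most of the scale in 3 of the 4 groups.

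On PRL probe A the 4 fetal vehicle arrays read -3.65, -4.20, -4.36 and -4.62, and the 4 fetal triclosan arrays read -4.49, -4.02, -3.99 and -4.70, in replicate order. The 2 maternal vehicle arrays read -3.19 and -1.19, and the 3 maternal triclosan arrays read -3.60, -3.86 and -3.81. Maternal vehicle replicate 2 was thus the highest of all, and maternal vehicle replicate 1 came next. In the processed signal itself, maternal vehicle replicate 2 gave 764, and the other 12 arrays gave between 53.5 and 188. The step from replicate 2 down to the next array was 2.00 on the log2 scale, or 4.00-fold, and the 12 lower arrays lay between -4.70 and -3.19.

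PRL probe B, with its 5 spots, showed the same single high array. It read -4.79, -4.65, -5.76 and -5.25 in fetal vehicle and -5.22, -4.63, -4.20 and -6.49 in fetal triclosan. It read -4.66 and -1.44 in maternal vehicle and -4.45, -4.25 and -6.18 in maternal triclosan. Its processed signal was 639 on maternal vehicle replicate 2 and 15.6 to 88.7 on the others, with a step of 2.75, or 6.75-fold, to the next array, which was fetal triclosan replicate 3. The 5 spots differed by a coefficient of variation of 3.7% on maternal vehicle replicate 2 and of at most 20.2% on any array, so the step was far larger than the spread between spots. Below the top array the PRL probes did not keep one order, since maternal vehicle replicate 1 ranked 2 of 13 on probe A and 7 of 13 on probe B. With normexp background correction it came next after the top array on both probes, and the steps below the top array were 1.21 on probe A and 1.62 on probe B.

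CGA probe C read -4.59, -5.59, -3.31 and 0.07 in fetal vehicle, in replicate order, and -0.90, -3.19, -3.72 and -5.56 in fetal triclosan. It read -5.32 and -5.05 in maternal vehicle and -3.70, -0.03 and -0.34 in maternal triclosan. Fetal vehicle replicate 4, maternal triclosan replicates 2 and 3 and fetal triclosan replicate 1 were the 4 highest arrays, in that order, and none of the other 9 came within 2.28 of them. In processed signal the probe ran from 29.4 on fetal triclosan replicate 4 to 1977 on fetal vehicle replicate 4. The 4 highest arrays came from 3 groups and from slides 1, 2 and 3, and no maternal vehicle array was among them.

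CGA probe D ordered the arrays in the same way except among the lowest 5. It read -5.70, -6.60, -3.36 and 0.30 in fetal vehicle, -0.67, -3.33, -3.89 and -6.01 in fetal triclosan, -6.42 and -5.51 in maternal vehicle, and -3.88, 0.09 and -0.20 in maternal triclosan. The processed signal ran from 16.7 to 2326, and the gap below the 4 highest arrays was 2.65. Across the 13 arrays the CGA probes had a Pearson correlation of 0.99 (Spearman 0.99), and the PRL probes one of 0.86 (Spearman 0.58), which was 0.51 without maternal vehicle replicate 2. These correlations describe the 13 arrays, whose points share slides and the scaling.

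The range of CGA over the arrays was among the widest on the array. Probe D spanned 6.90 on the log2 scale, or 120-fold. Of the 13738 probes that passed the filter on dim probes, only 9 spanned more. Probe C spanned 5.66, or 50.5-fold, with 33 probes spanning more. PRL probe B spanned 5.05, or 33.1-fold, and PRL probe A 3.51, or 11.4-fold, with 78 and 444 probes above them. The median probe spanned 1.14, or 2.21-fold. With normexp background correction the spans were 4.86 and 4.40 for CGA probes D and C and 3.06 and 2.78 for PRL probes B and A. Within groups the residual SD was 2.04 and 2.43 for CGA probes C and D and 0.57 and 1.11 for PRL probes A and B. The median over the 13738 tested probes was 0.27. Scatter between arrays of the same group was thus widest for CGA. For PRL probe A it lay mainly in maternal vehicle (SD 1.41, n = 2). In fetal vehicle, fetal triclosan and maternal triclosan the SD was 0.41, 0.35 and 0.14 on probe A and 0.50, 1.00 and 1.06 on probe B.

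**Figure D2:**
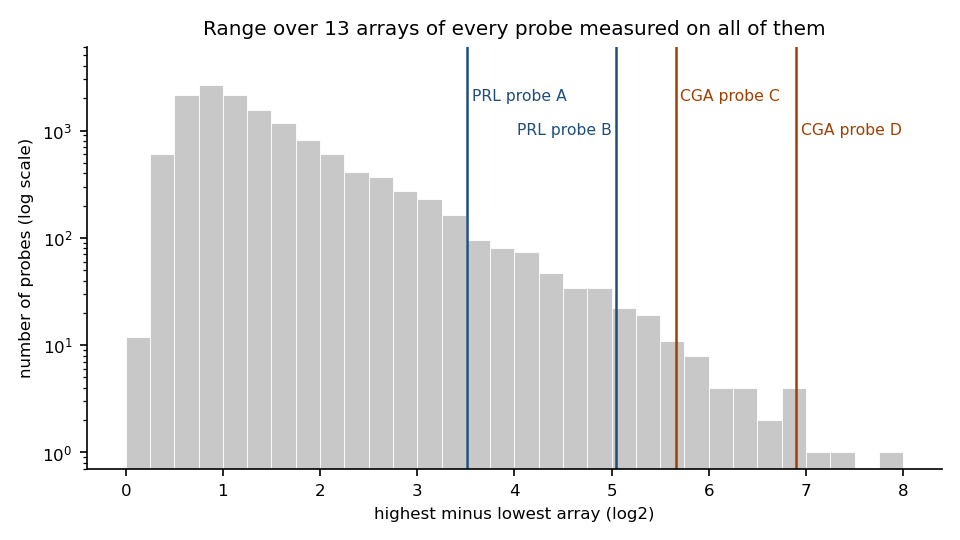
Number of probes (y axis, log scale) by the range between the highest and the lowest of the 13 arrays (x axis, log2), over the 13593 tested probes with a value on every array, with vertical lines at the PRL and CGA probes. The CGA lines stand at 5.66 and 6.90 and the PRL lines at 3.51 and 5.05, to the right of the median range of 1.14.

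In the direct arm neither gene differed between triclosan and vehicle by more than the spread between arrays. PRL probe A averaged -4.30 ± 0.35 (SD, n = 4) in fetal triclosan and -4.21 ± 0.41 (SD, n = 4) in fetal vehicle, a difference of -0.09 (SE 0.37). CGA probe C averaged -3.34 ± 1.92 (SD, n = 4) in fetal triclosan and -3.36 ± 2.47 (SD, n = 4) in fetal vehicle, a difference of 0.01 (SE 1.29). The second probes gave -0.02 (SE 0.71) for PRL and 0.37 (SE 1.53) for CGA. The groups overlapped on all 4 probes. Among the 13593 tested probes with a value on every array, 8.98% lay higher in fetal triclosan without overlap and 12.7% lay lower. With that SE, a change of several-fold in CGA in either direction could not be detected. Within slides the CGA difference of probe C was 3.69 on slide 1, 2.40 on slide 2 and -2.10 on slide 3, where fetal vehicle replicates 3 and 4 both lay, so its sign turned between slides. For PRL probe A the slide values were -0.84, 0.18 and 0.50. Fetal triclosan replicate 4, alone on slide 5 and scanned on a different day, does not enter the slide values of either gene.

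In the indirect arm PRL was lower and CGA higher with triclosan, with 2 vehicle arrays behind each value. PRL probe A averaged -3.75 ± 0.14 (SD, n = 3) in maternal triclosan and -2.19 ± 1.41 (SD, n = 2) in maternal vehicle, a difference of -1.57 (SE 0.47), and the groups did not overlap. Non-overlap in that direction was common here, at 19% of 13593 probes. On PRL probe B the difference was -1.90 (SE 0.91) and the groups overlapped, since maternal vehicle replicate 1 at -4.66 lay below maternal triclosan replicates 1 and 2. The difference on probe A was -0.57 without maternal vehicle replicate 2 and -2.57 without replicate 1, so a single array set most of its size. On slide 1 it was -0.41 and on slide 2, which held maternal vehicle replicate 2, -2.67, and on probe B the slide values were 0.22 and -2.80.

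CGA probe C averaged -1.36 ± 2.03 (SD, n = 3) in maternal triclosan and -5.18 ± 0.19 (SD, n = 2) in maternal vehicle, a difference of 3.83 (SE 1.66), or 14.2-fold. It was 2.47 with normexp background correction and 2.84 with array weights. Probe D gave 4.63 (SE 1.98), or 24.8-fold. The groups did not overlap on either probe, and 19.9% of 13593 probes lay higher in maternal triclosan in the same way. Within maternal triclosan, replicates 2 and 3 read -0.03 and -0.34 on probe C and replicate 1 read -3.70, and all 3 lay inside the range of fetal vehicle. On probe C the within-slide differences were 1.62 on slide 1 and 5.02 on slide 2. In samples of whole tissue, fewer cells of a type and less RNA per cell cannot be told apart, for these or any other transcripts.

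The vehicle groups also differed from each other. Maternal vehicle exceeded fetal vehicle in PRL probe A by 2.02 (SE 0.45) without overlap, a pattern found in 9.27% of 13593 probes (7.83% for lower), and in probe B by 2.06 (SE 0.86) with overlap. Without maternal vehicle replicate 2 the probe A difference was 1.02. CGA probe C was -1.83 (SE 1.58) and probe D -2.12 (SE 1.88) in the same comparison, with overlap, since fetal vehicle held both the highest and the lowest CGA array of the study. The direct minus the indirect difference was 1.47 (SE 0.60) for PRL probe A and -3.81 (SE 2.10) for CGA probe C, and 1.88 (SE 1.15) and -4.27 (SE 2.50) for the second probes. Both comparisons that involve maternal vehicle rest on the same 2 arrays.

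**Figure D3:**
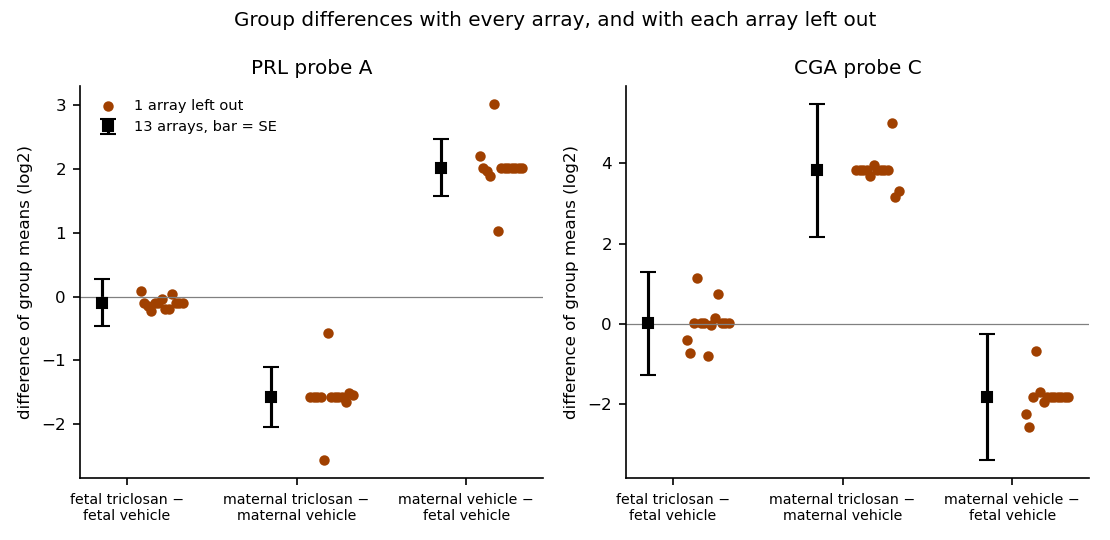
Difference of group means (y axis, log2) of PRL probe A and CGA probe C in 3 comparisons (x axis), squares with SE bars for all 13 arrays and smaller points with each array left out in turn. The PRL differences that involve maternal vehicle move between -0.57 and -2.57 and between 1.02 and 3.02, and the CGA difference of the indirect arm lies between 3.16 and 4.996 with 1 array left out.

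PRL and CGA did not rise on the same arrays. Maternal vehicle replicate 2, the highest in PRL, ranked 10 of 13 in CGA probe C, and fetal vehicle replicate 4, the highest in CGA, ranked 12 of 13 in PRL probe A. The Pearson correlation of PRL probe A with CGA probe C over the 13 arrays was -0.33 (Spearman -0.20), and it was -0.21 without maternal vehicle replicate 2. The corresponding value for deviations from group means was -0.20. It is given as a description of these arrays.

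The partner subunits of CGA differed in how often they were detected. TSHB, which with CGA makes thyroid-stimulating hormone, was well above background on 4 of 13 arrays, with processed signals of 103 on fetal vehicle replicate 4, 86.8 and 40.6 on maternal triclosan replicates 2 and 3, and 54.1 on fetal triclosan replicate 2. Of these, 3 were among the 4 arrays highest in CGA. The exceptions ran both ways: fetal triclosan replicate 1, ranked 4 in CGA, gave a TSHB signal of 3.04 that was not well above background, and fetal triclosan replicate 2, with TSHB detected, ranked 5 in CGA at -3.19. FSHB, the specific subunit of follicle-stimulating hormone, was well above background on 6 arrays. These were the same 4 as for TSHB plus maternal vehicle replicate 2, at 35.4, and fetal triclosan replicate 4, at 15.6, which ranked 12 of 13 in CGA probe C. The correlation with CGA probe C over the 13 arrays was 0.77 for TSHB and 0.49 for FSHB, with most points of both genes below detection.

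The 2 probes for LHB, the specific subunit of luteinizing hormone, gave no common picture. The brighter one read 3.41 to 4.33 on all 13 arrays with a correlation of 0.01 with CGA, and the other read -3.90 to -2.80 with a correlation of 0.53. Both ranges were narrow beside the 5.66 of CGA probe C. GNRHR, the gonadotroph receptor for gonadotropin-releasing hormone, was well above background on no array with either of its probes.

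Growth hormone, the product of the somatotrophs, shared its clearest signal with PRL. The GH probe with 5 spots was well above background on all 5 spots only on maternal vehicle replicate 2, at 57.1, while the other 12 arrays gave 2.72 to 5.66, with 1 spot detected on fetal vehicle replicate 4. The other GH probe was detected on that array at 59.0 and on maternal triclosan replicate 2 at 67.6, where the 5-spot probe gave 3.55 and PRL probe A read -3.86. The probe for PRP1 that shares the 18-base run with PRL probe B was also well above background on maternal vehicle replicate 2 alone, at 19.7, and the second PRP1 probe was detected on no array. Maternal vehicle replicate 2 was at least 2-fold above every other array at 5 of the 13593 tested probes with complete values. Both PRL probes were among them, with the largest gaps of the 5. The other 12 arrays stood out in that way at 0 to 53 probes each. Probes detected on fewer than 3 arrays were not counted, so GH and PRP1 were left out. The 5-spot GH probe read -4.93 on maternal vehicle replicate 2 and -8.10 on the next array, a wider gap than on either PRL probe.

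**Figure D4:**
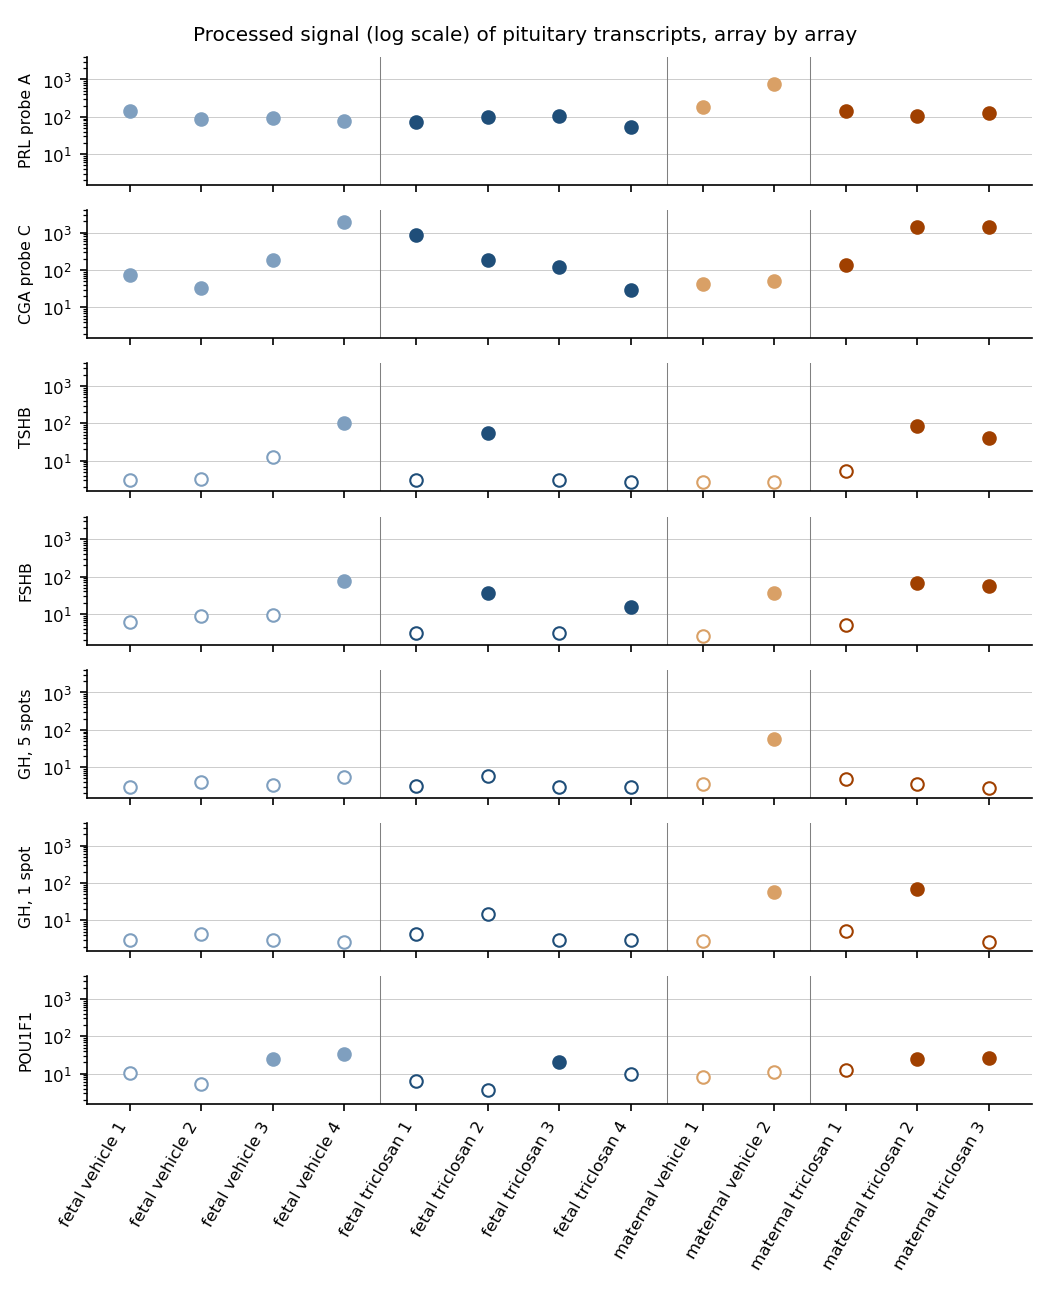
Processed signal (y axis, log scale, same limits in every row) of PRL, CGA and other pituitary transcripts on each of the 13 arrays (x axis), filled points where every spot of the probe was well above background and open points elsewhere. PRL and the 5-spot GH probe stand highest on maternal vehicle replicate 2, and TSHB is filled on 4 arrays, 3 of them among the 4 highest in CGA.

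POU1F1, which drives the lactotroph, somatotroph and thyrotroph fates, was well above background on 5 arrays by 1 of its probes and on none by the other. Those 5 were maternal triclosan replicates 2 and 3, fetal vehicle replicates 3 and 4 and fetal triclosan replicate 3, with signals of 21.1 to 33.0, and maternal vehicle replicate 2 gave 11.0, which was not well above background. NR5A1 was detected on 4 arrays, and NEUROD1 and EGR1, which the brain also expresses, on all 13.

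Of the 14 pituitary markers besides PRL and CGA, 10 were on the array, 4 of them were well above background on all 13 arrays and GNRHR on none. Their summed linear level, in multiples of the 75th percentile, was 12.1 to 17.5 in fetal vehicle, 14.4 to 15.7 in maternal vehicle, 12.7 to 21.2 in fetal triclosan and 17.38 to 19.004 in maternal triclosan. The bright LHB probe made most of that sum, and since it did not follow the other LHB probe, whether it reads LHB is unsettled and the sum may not measure pituitary RNA. The sum of GH, FSHB and TSHB alone was 0.0065 to 0.0962 in fetal vehicle, 0.0048 to 0.0559 in maternal vehicle, 0.0055 to 0.0641 in fetal triclosan and 0.0086 to 0.149 in maternal triclosan. Most of its terms were below detection, since GH, FSHB and TSHB were detected on 2, 6 and 4 of 13 arrays. It used the 1-spot GH probe, which gave 67.6 on maternal triclosan replicate 2, where the 5-spot probe gave 3.55. Whether the amount of pituitary tissue in each piece set the PRL or CGA levels was not tested. For the pars tuberalis, 2 of 4 markers were on the array, and the melatonin receptor MTNR1A, its defining receptor in sheep, was detected on 9 arrays that left out all 3 maternal triclosan arrays and fetal triclosan replicate 4. By the probe that stood for it, MTNR1A ran against CGA with a correlation of -0.50, and it was at -6.78 on the array highest in CGA. That probe averaged -6.95 in maternal triclosan and -5.60 in maternal vehicle. The other MTNR1A probe averaged -8.23 and -9.05, in the opposite order, but these levels were as low as those of TSHB where it was not well above background. TSHB, the other marker, ran with CGA at 0.77, so the pars tuberalis markers gave no common direction.

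On each array 83.3% to 90.1% of all spots were well above background, so detection of markers does not test the hypothalamic label. Of the 10 measured hypothalamic markers, 9 were well above background on all 13 arrays, OXT, SST, AGRP, NPY, POMC and GHRH among them. Their summed linear level, in which SST was brightest, was 9.19 to 19.8 in fetal vehicle, 11.18 to 16.04 in maternal vehicle, 9.502 to 56.07 in fetal triclosan and 24.96 to 34.79 in maternal triclosan, so that it too was higher in maternal triclosan than in maternal vehicle, without overlap, as CGA was. Several of these peptides, made in the arcuate nucleus, followed CGA over the arrays. AGRP, NPY, GHRH and POMC also averaged higher in maternal triclosan than in maternal vehicle. So did OXT, SST, GNRH1, PMCH, GAL and TAC3, by the probe that stood for each gene. SST averaged 4.25 against 3.11, and GAL -0.82 against -0.88. Why AGRP, NPY, GHRH and POMC followed CGA, and whether the likeness is particular to the arcuate nucleus, was not tested.

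AGRP, the appetite-stimulating peptide of arcuate neurons, had a correlation of 0.82 with CGA probe C, and NPY, made by the same neurons, one of 0.79. AGRP read -5.30, -4.34, -3.22 and -2.29 in fetal vehicle and -0.66, -1.48, -2.37 and -5.98 in fetal triclosan. It read -5.71 and -3.85 in maternal vehicle and -2.14, -1.36 and -0.58 in maternal triclosan. On the 4 arrays highest in CGA it was never below -2.29, and on fetal triclosan replicate 4 and maternal vehicle replicate 1, among the lowest in CGA, it was at its 2 lowest values. GHRH, the releasing hormone for growth hormone, had a correlation of 0.72 with CGA and read from -6.15 on maternal vehicle replicate 1 to 0.31 on fetal triclosan replicate 1. POMC, which arcuate neurons and pituitary corticotrophs both make, had one of 0.74 and read from -1.01 to 1.90.

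The genes most like CGA over the 13 arrays, among the 902 named genes tested, were EM4b at 0.85, AGRP at 0.82, NPY at 0.79, TSHB at 0.77 and CALML4 at 0.76. Each stayed at 0.70 or above when the array highest in CGA, fetal vehicle replicate 4, was left out. The lowest were SPRY-2 at -0.71, DOHH at -0.71 and CYP2J at -0.70. For PRL probe A the highest were GLUD1, a mitochondrial glutamate dehydrogenase, at 0.69, PTX3 at 0.65, CAPN1 at 0.62, IL1B at 0.61 and EPAS at 0.60. The lowest for PRL were PKLR at -0.84, MCP-3 at -0.69 and LYZ at -0.68. Without maternal vehicle replicate 2 the value for GLUD1 was 0.56 and that for PKLR -0.59. The 5 highest and 3 lowest of each gene were picked from 902, a choice that favours extreme values. GH and PRP1 were not among the 902, since they were well above background on fewer than 3 arrays. Over the 13 arrays the 5-spot GH probe had a correlation of 0.85 with PRL probe A (Spearman 0.24) and the detected PRP1 probe one of 0.77, and each was detected on all its spots only on maternal vehicle replicate 2. The other GH probe, detected on maternal triclosan replicate 2 as well, had a correlation of 0.54 with PRL probe A (Spearman 0.26).

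**Figure D5:**
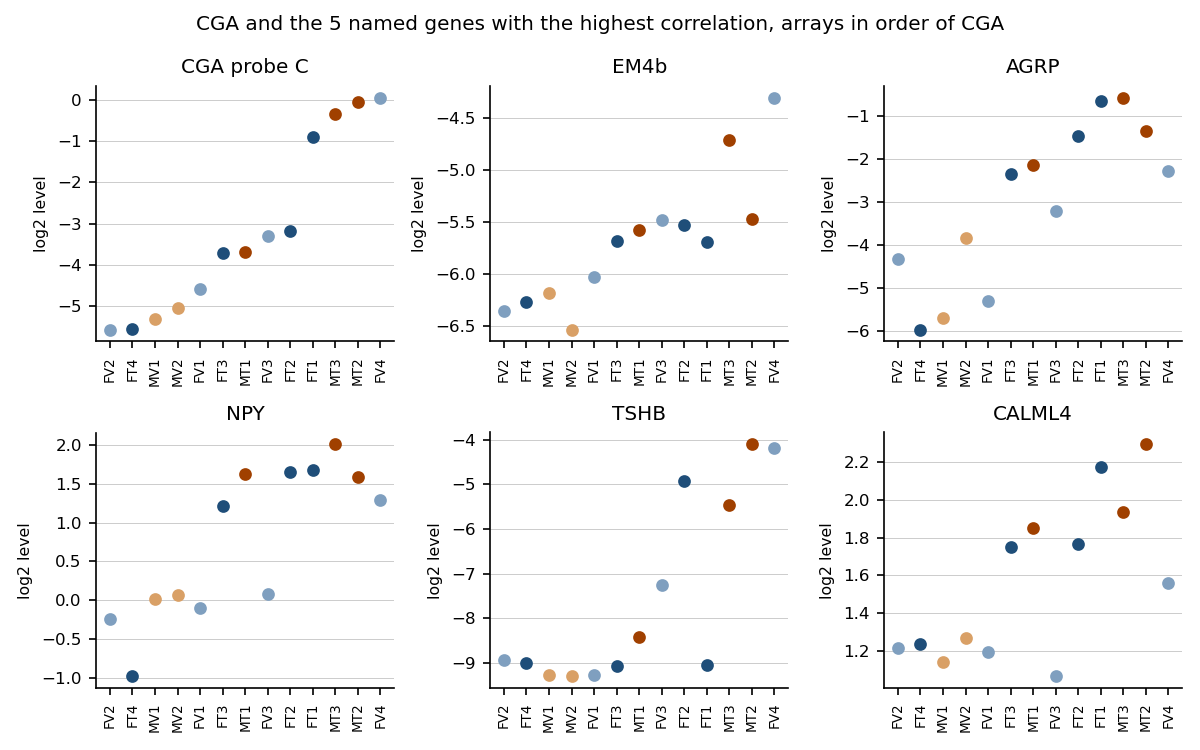
Log2 level (y axis, own scale in each panel) of CGA probe C and of the 5 named genes with the highest correlation with it, on 13 arrays ordered by CGA (x axis; FV fetal vehicle, FT fetal triclosan, MV maternal vehicle, MT maternal triclosan, with the replicate number). AGRP and NPY are low on the arrays at the left and high at the right, while TSHB leaves the floor on few arrays.

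The genes around prolactin and the glycoprotein hormones were tested with limma over all 13738 probes with Benjamini-Hochberg adjustment. In direct exposure, 18.2% of probes passed an adjusted p of 0.05, 6.82% higher and 11.4% lower in fetal triclosan. In indirect exposure, in the difference between the exposures and between the vehicle groups, 0 probes passed with limma, while 1324 (9.64%), 2013 (14.7%) and 450 (3.28%) had an unadjusted p under 0.05. None of the 4 tested pituitary hormone genes other than PRL and CGA passed in any comparison, nor did any of the 8 tested receptors for releasing and inhibiting hormones, the 5 pituitary transcription factors or the 5 pars tuberalis genes. TSHB in indirect exposure had an adjusted p of 0.562, with no maternal vehicle array above background. Over the 4 hormone genes the median difference was -0.17 in direct and 1.58 in indirect exposure, against -0.09 and 0.01 over all probes.

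Among the receptors listed here for pituitary cells, none followed CGA closely. CRHR1, the corticotropin-releasing hormone receptor, had the lowest adjusted p of the 8, at -0.93 (SE 0.32, adjusted p = 0.0673 with limma) in direct exposure. GHRHR, the somatotroph receptor for growth hormone-releasing hormone, ran against CGA at -0.41 and was detected on 11 arrays. It averaged -6.25 in maternal triclosan and -4.56 in maternal vehicle, the same order as PRL. The somatostatin receptors SSTR2 and SSTR5 had correlations of -0.33 and 0.42 with CGA, the vasopressin receptor AVPR1B one of -0.22, the progesterone receptor PGR one of -0.23 and TRHR, the receptor for thyrotropin-releasing hormone, one of -0.02. TRHR and SSTR2 also averaged lower in maternal triclosan than in maternal vehicle, TRHR at -4.27 against -2.65 by the probe that stood for it. CRHR1, SSTR5 and PGR averaged higher, and the AVPR1B probes gave opposite orders. GHSR, the ghrelin receptor, was detected on no array. CRY1, a clock gene listed for the pars tuberalis, had a correlation of -0.34 with CGA.

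Of the prolactin receptor and its signalling, 3 of 14 listed genes were measured and 1 fell in direct exposure, where 11.4% of all probes passed as lower. STAT5A, the factor that the prolactin receptor activates, was lower in fetal triclosan by -0.97 (SE 0.16, adjusted p = 0.00429 with limma, n = 4 and 4). It read -3.41, -3.61, -3.53 and -3.23 in fetal vehicle and -4.52, -4.55, -4.10 and -4.50 in fetal triclosan, with no overlap. In indirect exposure STAT5A differed by -0.35 (SE 0.21, adjusted p = 0.592 with limma), and the difference between the exposures had an adjusted p of 0.316. PRLR, the receptor itself, was near the detection limit, and its probes disagreed. The standing probe gave -0.66 (SE 0.30, adjusted p = 0.157 with limma) in direct exposure, another gave -1.70 (SE 0.33, adjusted p = 0.00727 with limma) and one more gave 0.82 (SE 0.88, adjusted p = 0.553 with limma).

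Of the 17 measured genes that control prolactin from the hypothalamus or locally, 0 passed with limma in any comparison. TAC1, the precursor of substance P, had 0.37 (SE 0.12, adjusted p = 0.0523 with limma) in direct exposure, and among these 17 genes it ran most strongly against PRL, with a correlation of -0.63. EGFR, the epidermal growth factor receptor, ran with PRL at 0.51, and it differed by -0.76 (SE 0.27, adjusted p = 0.0695 with limma) in direct exposure. ADCYAP1, the precursor of the peptide PACAP, and the estrogen receptor ESR1 ran with CGA instead, at 0.58 and 0.50. The median difference of the 17 genes was 0.02 in direct and 0.15 in indirect exposure.

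Of the 19 measured genes for gonadotropin and thyrotropin subunits, releasing hormones, receptors and activins, 2 fell in direct exposure and 0 rose, where 11.4% of all probes passed as lower, so their share was near that of all probes. ACVR1, a receptor of the activin and bone morphogenetic protein family, was lower by -0.89 (SE 0.17, adjusted p = 0.007 with limma), without overlap. ACVR1B, an activin receptor, was lower by -0.62 (SE 0.19, adjusted p = 0.0462 with limma), and this call was lost under 16 of 25 alternatives, among them median scaling, where the difference was -0.40 with a limma adjusted p of 0.12. TAC3, the precursor of neurokinin B, which acts on gonadotropin-releasing hormone neurons, had a correlation of 0.56 with CGA and differed by 0.90 (SE 0.38, adjusted p = 0.127 with limma). TSHR, the thyrotropin receptor, had a correlation of 0.63 with CGA and was highest, at -3.27, on maternal triclosan replicate 3. Over these 19 genes the median difference was 0.11 in direct and 0.14 in indirect exposure.

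Markers of other tissues that border the piece also varied between arrays. TTR, the defining choroid plexus transcript, read from -2.08 on fetal triclosan replicate 1 to 3.38 on fetal triclosan replicate 3, and had a correlation of -0.26 with CGA and 0.02 with PRL. The summed linear level of the 3 measured meningeal markers, of which DCN was brightest, was 2.02 to 3.06 in fetal vehicle, 2.62 to 3.02 in maternal vehicle, 2.48 to 3.41 in fetal triclosan and 4.05 to 6.84 in maternal triclosan, so it was higher in maternal triclosan, as CGA was. That sum followed DCN, which averaged 2.23 in maternal triclosan and 1.41 in maternal vehicle, whereas COL1A2 averaged -3.62 and -3.43, in the opposite order. The 3 erythroid markers summed to 3.28 to 8.90 in maternal vehicle and 10.5 to 26.8 in maternal triclosan, and to 4.28 to 12.5 and 11.8 to 23.4 in fetal vehicle and fetal triclosan. Their part in the PRL and CGA differences was not tested. DCN and TIMP1, an inhibitor of matrix proteases, had correlations of 0.63 and 0.69 with CGA, and HBB, a beta globin, one of 0.36. In direct exposure, 1 of 6 meningeal and connective tissue genes rose, PTGDS by 0.55 (SE 0.15, adjusted p = 0.0302 with limma), a call lost under 8 of 25 alternatives, where 6.82% of all probes passed as higher. The collagens of the same list were lower in value, COL1A2 by -0.42 (SE 0.20, adjusted p = 0.166 with limma) and COL3A1 by -0.72 (SE 0.27, adjusted p = 0.0895 with limma), and another COL3A1 probe fell by 1.32 (SE 0.21, adjusted p = 0.00429 with limma). Of 3 erythroid genes 1 rose, AHSP, which encodes a chaperone of alpha globin, by 0.94 (SE 0.28, adjusted p = 0.0383 with limma), a call lost under 9 of 25 alternatives. The other AHSP probe gave 0.51 (SE 0.29, adjusted p = 0.248 with limma), so the call rests on 1 probe. None of the 4 choroid plexus genes, the 12 hypothalamic peptide genes or the 1 measured secretory granule gene, CPE, passed with limma in any comparison.

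As to the arrays as a whole, the median processed signal was 236 to 380, 83.3% to 90.1% of spots were well above background, and no spot was saturated. Maternal vehicle replicate 2, with a median of 351 and 86.7% of spots well above background, lay inside both ranges. Both lowest values belonged to fetal triclosan replicate 4, which was scanned on a different day from the other arrays used.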

How the data were processed

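Fetal sheep hypothalamus was measured on single-colour Agilent arrays. Per the file headers, the scanner files hold intensity values from Agilent Feature Extraction 10.1.1.1, in which the authors' processed signal is background-subtracted and detrended within the array, with flags per spot. The deposited value table appears to be on a log2 scale, with its scaling unstated, and it served only as an alternative. The submitters' processing notes also list limma, with no role.

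PRL, CGA and all gene lists were chosen with earlier results of these data known. Log2 processed signals were centred on the 75th percentile of each array. Control and outlier spots were left out, spots of a probe were averaged, and a probe was tested when well above background on at least 3 of 13 arrays (13738 probes, 250 missing values). limma 3.58.1 in R 4.3.3 fitted group means (9 residual and 2.36 prior degrees of freedom) with Benjamini-Hochberg adjustment at 0.05. It was checked on simulated data. Gene names came from the files and a supplied RefSeq gene table, which left 13351 of 15008 probes without a name. The probe with the highest mean over the arrays stood for its gene. Named were all genes of the 4 pituitary lists, up to 4 of each other list by their correlation with PRL or CGA or by a call, and the 5 highest and 3 lowest correlations of PRL and CGA. The number of arrays limits the precision. Arrays with the same replicate number shared a slide, apart from fetal vehicle replicate 4 on slide 3 and fetal triclosan replicate 4 on slide 5. Alternatives were other scalings, background correction, filters, blocks, weights and leaving out each array. Values of 2 listed genes are not reported here.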

Additional observations from a re-analysis of the deposited data

Results flagged for a closer look

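Among the groups of 4 arrays, 94 gene-by-group sets were examined for an array far from the other 3, and chance flags about 1 in 20 such groups. No PRL or CGA probe stood out in this way in fetal vehicle or fetal triclosan, and the PRL value of maternal vehicle replicate 2 lies in a group too small for the rule. TSHB in fetal triclosan stood apart on replicate 2, at -4.93 against -8.99 for the next array. NEUROD1 stood apart on fetal vehicle replicate 1, at -0.54 against -2.82, and on fetal triclosan replicate 4, at -2.92 against -2.58. LHB by its brighter probe was low on fetal vehicle replicate 2, at 3.41 against 3.83. STAT5A was least reduced on fetal triclosan replicate 3, at -4.1 against -4.5 for the next array. PRLR was lowest on fetal triclosan replicate 4, at -8.05 against -7.18, and PKLR on fetal triclosan replicate 2, at -6.97 against -6.52.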

How the results depend on the processing

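The PRL difference of the direct arm and every CGA difference moved by less than 1 within-group SD under every alternative run. That SD was 0.57 for PRL probe A and 2.04 for CGA probe C, so for CGA the bound was wide. The PRL differences that involve maternal vehicle moved by more than 1 SD only when an array of that group was left out. The correlation of PRL with CGA moved by less than 0.22. That bound was the spread of the leave-one-out correlations themselves, so they could hardly exceed it. Leaving out each array gave -0.23 to 0.09 (direct), -2.57 to -0.57 (indirect) and 1.02 to 3.02 (vehicle groups) for PRL, -0.80 to 1.16, 3.16 to 4.996 and -2.57 to -0.68 for CGA, and -0.47 to -0.21 for the correlation. Over all alternatives the CGA difference of the indirect arm ran from 2.47, with normexp background correction, to 4.996, and normexp narrowed the span of every member. Counts called by limma in direct exposure were 2498 as reported, 1586 with quantile normalization, 1275 with the 2 groups alone and 1226 to 2955 with 1 array left out, lowest without fetal vehicle replicate 3 and 1654 without fetal vehicle replicate 1. In indirect exposure the 0 calls became 408 with array weights, 12 with all 14 arrays, which counts the mixed array as a sample, and 0 to 2 with 1 array left out. The difference between the exposures had 0 calls as reported, 1 with quantile normalization, 4 with all 14 arrays and 0 to 12 with 1 array left out, and the vehicle groups had 0 to 2. The cause was not tested. Replicate numbers were not taken to pair the arrays: deviations of same-numbered arrays from group means correlated at -0.17 to 0.46, over 0.1 in 8 of 16 pairs, and 7 of 13 arrays correlated best with one of their own number. With a replicate block, 2824 probes were called in direct exposure and 0 in the other comparisons, and the PRL differences were -0.09, -1.54 and 1.86 and those of CGA 0.01, 3.65 and -1.45. STAT5A and ACVR1 kept direction and call under all 25 alternatives; ACVR1B kept its call under 9 of 25. The other probe of each member, chosen as an alternative after seeing the data, is given in the report. With 2 maternal vehicle arrays, fold changes of several-fold in CGA lie within the error, and probes near background give only bounds.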
